A study of Mus musculus with 8 samples.

Results

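The lysosomal set described here held 42 genes, which encode enzymes, helper proteins and membrane proteins of the lysosome and the 3 transcription factors Tfeb, Tfe3 and Mitf. Its members were all probes whose listed gene symbol was one of these 42, among 19321 symbols on the array, which gave 47 of its 23473 probes. Of the genes, 37 had 1 probe and 5 had 2, namely Ctsa, Arsb, Sgsh, Gm2a and Mitf. All 47 probes lay above the limit of the blank spots (their mean plus 2 SD) on all 8 arrays, so every member was tested.

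RNA of 8 brains of male C57Bl/6J mice was measured, with 1 one-colour array for each mouse. In the control group 2 mice drank water and were sampled at day 0. Trehalose, a sugar of a pair of joined glucose units, was given for 1 day to 3 mice and for 10 days to 3 mice, at a dose not given in the sources used here. All mice were 9 weeks old when housed, had 1 week to acclimatize, fasted for 6 h and were perfused before sampling. The labels name the cerebral cortex as the tissue and the design text names the left hemisphere. Cages held 3 mice, and which mice shared a cage is not given. Water mice were sampled at day 0 only, so trehalose and the time of sampling cannot be told apart.

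Lysosomes are acidic organelles in which hydrolases break down proteins, glycans, lipids and glycogen that arrive by endocytosis or autophagy. Most soluble hydrolases are tagged with mannose 6-phosphate in the Golgi and carried by receptors to the endosome, while membrane proteins form a glycan-coated lining, move cholesterol and release ions. Tfeb, Tfe3 and Mitf are related helix-loop-helix factors that enter the nucleus when the kinase mTORC1 is low and bind E-box sequences near many lysosomal genes. Loss of single members causes lysosomal storage diseases, many of which affect neurons. Trehalose has been studied as an inducer of autophagy and of Tfeb in cultured cells and mouse models.

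The promoters of several members carry the letters to which these factors bind. RefSeq windows of GRCm38.p6 from 250 bases before to 50 after an annotated gene start were at hand for 38 of the 42 genes. Some genes had more than 1 such start, and Asah1, Ctsb, Ctsh and Npc1 were not matched. The E-box core CACGTG and the longer form TCACGTGA, which contains it, were searched. Both are palindromes, so 1 search covers both strands. The core was present in 12 of the 38 genes (31.6%), against 8.09% of the 27025 genes of the table. Of its 17492 protein-coding genes, 8.91% held the core. The longer form was present in 5 of the 38 (13.2%), against 1.12% of all genes and 1.41% of the protein-coding ones. Over windows, the shares were 26.1% of 46 member windows against 7.15% of 32851 for the core, and 10.9% against 0.974% for the longer form. These genes were the longer-form carriers Ctsa, Cln3, Ctsd, Mcoln1 and Gla, and Lamp1, Glb1, Gaa, Sgsh, Ctsl, Arsa and Ctsf with the core alone. A match describes these letters only and is not a measured binding site.

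The stretches below are shown because they hold the longer form, or, for Lamp1, the most cores and, for Gaa, the member with the lowest p of the array tests. All end before the annotated start of their window and are written along the gene's own strand, with the motif in capitals. For Cln3 and Ctsa this start lies inside the gene, and the window at the outer start of each holds no core.
Ctsd, chr7:142387899-142387946, minus strand, aspartic protease: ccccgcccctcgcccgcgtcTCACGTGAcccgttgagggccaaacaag
Mcoln1, chr8:3500453-3500500, plus strand, lysosomal calcium channel: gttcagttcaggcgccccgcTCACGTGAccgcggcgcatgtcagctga
Cln3, chr7:126583331-126583378, minus strand, membrane protein: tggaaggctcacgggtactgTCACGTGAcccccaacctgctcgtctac
Ctsa, chr2:164833740-164833772, plus strand, protective protein and peptidase: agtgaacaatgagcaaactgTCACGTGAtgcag
Gla, chrX:134601173-134601253, minus strand, alpha-galactosidase, with 2 sites: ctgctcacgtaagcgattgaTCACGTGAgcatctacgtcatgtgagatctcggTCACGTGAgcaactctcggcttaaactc
Lamp1, chr8:13159080-13159160, plus strand, membrane glycoprotein, with 4 cores: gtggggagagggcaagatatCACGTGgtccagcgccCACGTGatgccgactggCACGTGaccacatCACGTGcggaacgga
Gaa, chr11:119267803-119267848, plus strand, acid alpha-glucosidase: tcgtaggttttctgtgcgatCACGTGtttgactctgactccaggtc

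**Figure D1:**
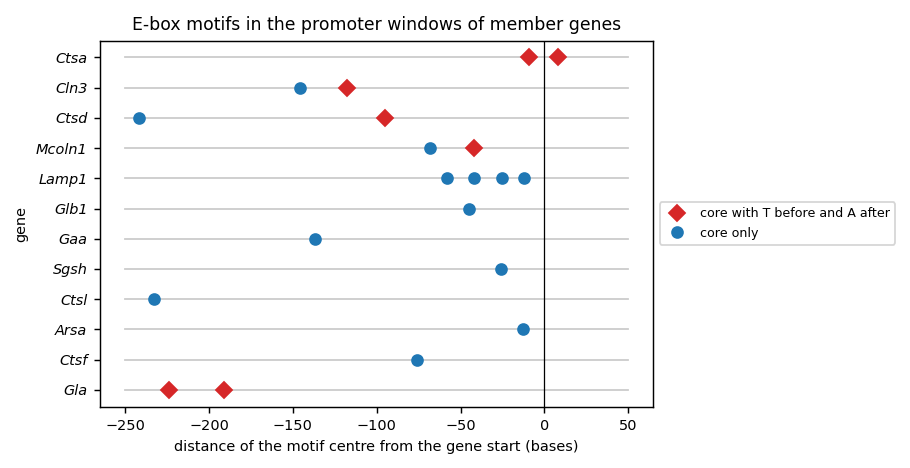
Positions of the E-box motifs in the 12 member genes that hold one, in bases from the annotated start of the window (vertical line). Negative values lie before it. For Cln3, Ctsa and Ctsl this start lies inside the gene. Red diamonds are the core with T before and A after, blue circles the core alone, and grey lines the searched window. The 4 cores of Lamp1 have their centres between -58 and -12, and the core of Gaa lies at -137.

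Log2 intensity is the unit of all expression values below, and a difference of 1 would be a doubling. Changes were tested with limma on all 21583 probes above background, and p-values were adjusted over all of them by Benjamini-Hochberg, with a threshold of 0.05. The arrays detected 86.3% to 92.0% of their probes. The neuron, astrocyte, oligodendrocyte and microglia marker lists were above the limit on all 8 arrays. Array 2 of the 1-day group stood apart in its regional markers. The median of its 6 striatal probes lay 0.86 below their means over all arrays, against deviations of -0.14 to 0.36 on the other 7 arrays. Its thalamic markers deviated by 0.31 and its choroid plexus markers by 0.24, and these were the highest of the 8 arrays. The array with the most striatal signal was the first water control, at 0.36. Thalamic markers also differed between water and the other trehalose arrays, as given with the marker lists below. The part of tissue makeup in the results below was not tested, and values without array 2 of the 1-day group are given beside the members with an unadjusted p under 0.05 and for others named below. Without it the median of the members was -0.0056 at 1 day and 0.03 from 1 to 10 days, and 4 members had an unadjusted p under 0.05 at 1 day, in place of the 6 described below.

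No member changed by the test. Of the 47 probes, 0 passed at 1 day against water, 0 at 10 days against water and 0 at 10 days against 1 day, and limma called 0 of the 21583 probes (0%) in each of these comparisons. The smallest adjusted p was 1 in both comparisons with water and 0.9997 between the times, and every member had these values. The changes lay between -0.27 and 0.27 at 1 day, between -0.31 and 0.13 at 10 days, and between -0.18 and 0.26 from 1 to 10 days. Higher and lower members were close to even, with 23 higher and 24 lower at 1 day, 25 and 22 at 10 days, and 25 and 22 between the times. The median of the members was -0.0005 at 1 day, against -0.0003 over all probes, 0.0043 at 10 days, against -0.0017, and 0.0027 between the times, against -0.0015.

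The spread among mice set how much could be excluded. For all 47 probes the 95% interval of the change lay within 1.5-fold either way in each comparison. The median interval of the members reached 0.162 to each side in both comparisons with water and 0.145 between the times, against 0.131 and 0.117 for all probes. The background correction adds an offset that shrinks the changes of dim probes, so these bounds hold for log2 intensity as computed. It matters most for 1 probe each of Arsb, Sgsh and Gm2a, which read at most 1.13, 1.27 and 1.19 times the blank limit. With 2 water mice the precision is limited, and an adjusted p above the threshold does not show that expression was equal.

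**Figure D2:**
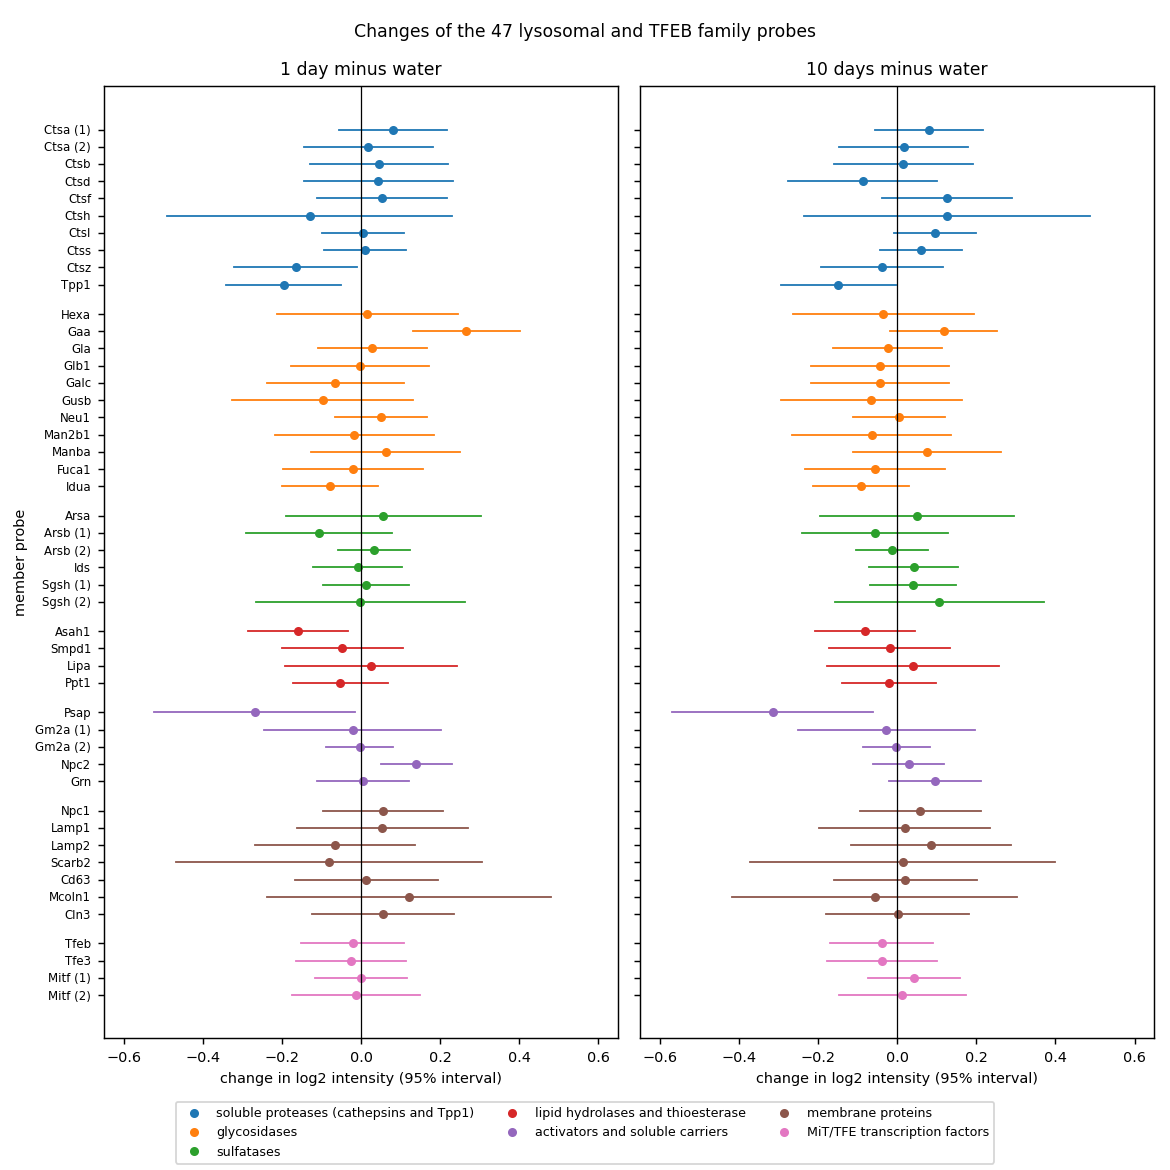
Change in log2 intensity of each member probe (points) with its 95% interval (lines), for 1 day minus water on the left and 10 days minus water on the right, coloured by role. Genes with 2 probes are numbered 1 and 2. The points lie between -0.31 and 0.27, and every interval lies within 1.5-fold either way.

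Without adjustment, limma gave 6 of the 47 probes (12.8%) a p under 0.05 at 1 day against water, while 3.65% of all probes had one. This count depended on the processing and on single mice. It was 1 with the blank mean subtracted, 0 with the authors' table, 3 with trend and robust variances and 3 without either water control. Gaa and Npc2 were the 2 higher ones, against 2.02% of all probes, and Tpp1, Asah1, Ctsz and Psap the 4 lower ones, against 1.62%. At 10 days against water 0 members were higher at this level, against 1.23% of all probes, and the 2 lower ones (4.26%) were Psap and Tpp1, against 0.774%, with 2% of all probes in either direction. At 10 days against 1 day 0 were higher, against 1.85%, and the 2 lower ones were Npc2 and Gaa, against 1.65%, with 3.5% in either direction.

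By the ranges of the arrays, at 1 day 9 of the 47 probes (19.1%) had all 3 trehalose arrays on one side of both water arrays, against 18.2% of all probes. Of these 2 were higher, against 8.97%, and 7 lower, against 9.19%. At 10 days 7 were clear of water (14.9%), against 13.4% of all probes, with 2 higher, against 6.46%, and 5 lower, against 6.97%. The arrays at 10 days were clear of those at 1 day for 3 probes (6.38%), against 8.39% of all probes, with 1 higher, against 4%, and 2 lower, against 4.39%. In each comparison these shares lay near those of all probes. The median size of a change, whatever its sign, was 0.047, 0.044 and 0.046 for the members in the same order of comparisons, and 0.036, 0.035 and 0.036 for all probes.

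**Figure D3:**
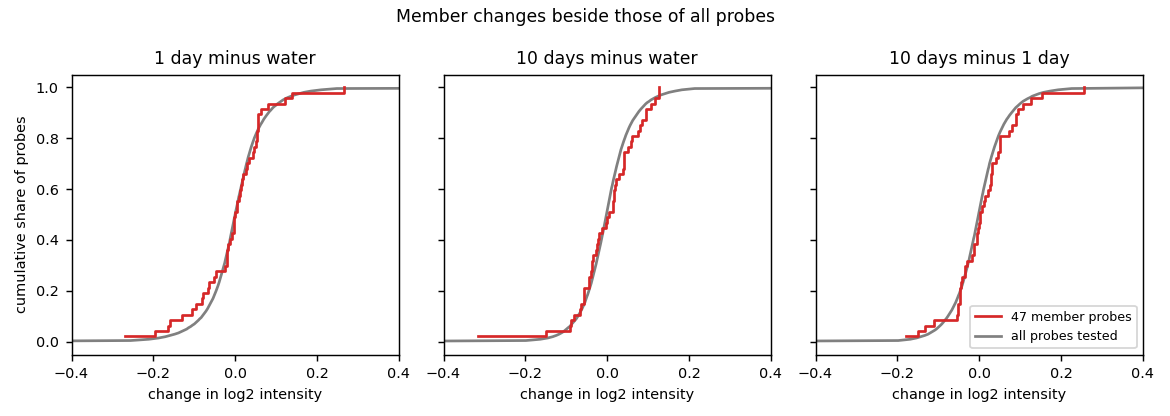
Cumulative share of probes (vertical axis) against the change in log2 intensity (horizontal axis) for the 47 member probes (red steps) and all 21583 tested probes (grey line), in 3 panels for the 3 comparisons. The red steps follow the grey line around 0, with member medians of -0.0005, 0.0043 and 0.0027.

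The 11 glycosidases cut sugars from glycoproteins, glycolipids and glycogen. Gaa, the acid alpha-glucosidase that frees glucose from glycogen, had the lowest p of all members. It read 10.51 and 10.59 in the water mice, 10.72, 10.85 and 10.88 after 1 day and 10.72, 10.63 and 10.66 after 10 days. All 6 trehalose arrays were above both water arrays, and 1 of the 1-day arrays lay within the range at 10 days. The change was 0.27 at 1 day (SE 0.058, 95% interval 0.13 to 0.40), which is 1.20-fold. It ranked 27 of the 21583 probes by p. Leaving out single arrays gave 0.23 to 0.31, and without array 2 of the 1-day group it was 0.25. At 10 days the change was 0.12 (SE 0.058, 95% interval -0.02 to 0.25), from 0.08 without the first water control to 0.16 without the second, and 10 days minus 1 day gave -0.15 (SE 0.052), or -0.13 without that array. Subtracting the scanner's local background column, which followed the spots themselves, gave 2.02 at 1 day and 1.84 at 10 days.

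The other glycosidases showed no such separation except Idua, which cuts iduronic acid from dermatan and heparan sulfate. Idua read 7.04 and 7.05 in water mice, 6.97, 6.96 and 6.97 after 1 day and 7.00, 7.01 and 6.85 after 10 days, so all trehalose arrays were lower. Its changes were -0.08 at 1 day (SE 0.052, 95% interval -0.20 to 0.04) and -0.09 at 10 days (-0.21 to 0.03), and the first was -0.08 without array 2 of the 1-day group. For Gla, Glb1, Hexa, Galc, Gusb, Neu1, Man2b1, Manba and Fuca1, which act on galactosides, hexosaminides, galactosylceramide, glucuronides, sialic acid, mannosides and fucosides, changes lay between -0.10 and 0.08 in both comparisons with water. Of the 11 glycosidases 5 were higher and 6 lower at 1 day, and 3 higher and 8 lower at 10 days.

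The soluble proteases were 8 cathepsins and Tpp1, a tripeptidyl peptidase lost in a childhood neuronal ceroid lipofuscinosis. Tpp1 read 8.79 and 8.89 in water mice, 8.66, 8.69 and 8.57 after 1 day and 8.76, 8.59 and 8.70 after 10 days. Each trehalose array was below both water arrays, and 1 of them only just. The changes were -0.20 at 1 day (SE 0.063, 95% interval -0.34 to -0.05) and -0.15 at 10 days (SE 0.063), the second from -0.20 without the first water control to -0.10 without the second. Without array 2 of the 1-day group the first was -0.22, and leaving out single arrays gave -0.25 to -0.15 for it.

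Among the cathepsins, Ctsz, a carboxypeptidase rich in microglia, and Ctsl, an endopeptidase, had the lowest p. Ctsz read 8.75 and 8.62 in water mice, 8.53, 8.45 and 8.58 after 1 day and 8.57, 8.74 and 8.64 after 10 days, so the 1-day arrays were below water and the 10-day arrays overlapped both. Its change was -0.17 at 1 day (SE 0.067, 95% interval -0.32 to -0.01), and -0.13 without array 2 of that group. It was -0.10 without the first water control and -0.23 without the second. From 1 to 10 days it was 0.13 (SE 0.060), or 0.09 without array 2 of the 1-day group, 0.08 without array 2 of the 10-day group and 0.17 without array 1 of the 10-day group. With the local background column the 1-day change was 0.02, with the other sign. Ctsl read 9.58 and 9.59 in water mice, 9.54, 9.60 and 9.64 after 1 day and 9.69, 9.63 and 9.72 after 10 days, with the 10-day arrays above water. Its changes were 0.10 at 10 days (SE 0.044) and 0.09 from 1 to 10 days (SE 0.040), or 0.10 without array 2 of the 1-day group.

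Ctsb, a cysteine protease, and Ctsd, the main aspartic protease of lysosomes, overlapped between groups or moved by little. Ctsb read 11.68 and 11.69 in water mice, 11.75, 11.68 and 11.77 after 1 day and 11.55, 11.82 and 11.73 after 10 days. Ctsd read 11.48 and 11.35 in water mice, 11.56, 11.52 and 11.29 after 1 day and 11.33, 11.30 and 11.34 after 10 days. The 10-day Ctsd arrays lay just under the lower water array, with a change of -0.09 (SE 0.081). Ctsf, a cysteine protease also lost in a ceroid lipofuscinosis, read 8.44 and 8.25 in water mice, 8.42, 8.46 and 8.33 after 1 day and 8.53, 8.50 and 8.39 after 10 days, and the groups overlapped. Its change at 10 days was 0.13 (SE 0.071), with 0.03 to 0.22 when single arrays were left out, the lowest without the second water control. Ctsh, an aminopeptidase, varied most among the proteases, with 7.61 and 7.55 in water mice, 7.36, 7.22 and 7.77 after 1 day and 7.79, 7.80 and 7.52 after 10 days. Its change from 1 to 10 days was 0.26, and 0.14 without array 2 of the 1-day group. Ctss, a protease of microglia, and the 2 Ctsa probes differed from water by 0.01 to 0.08.

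**Figure D4:**
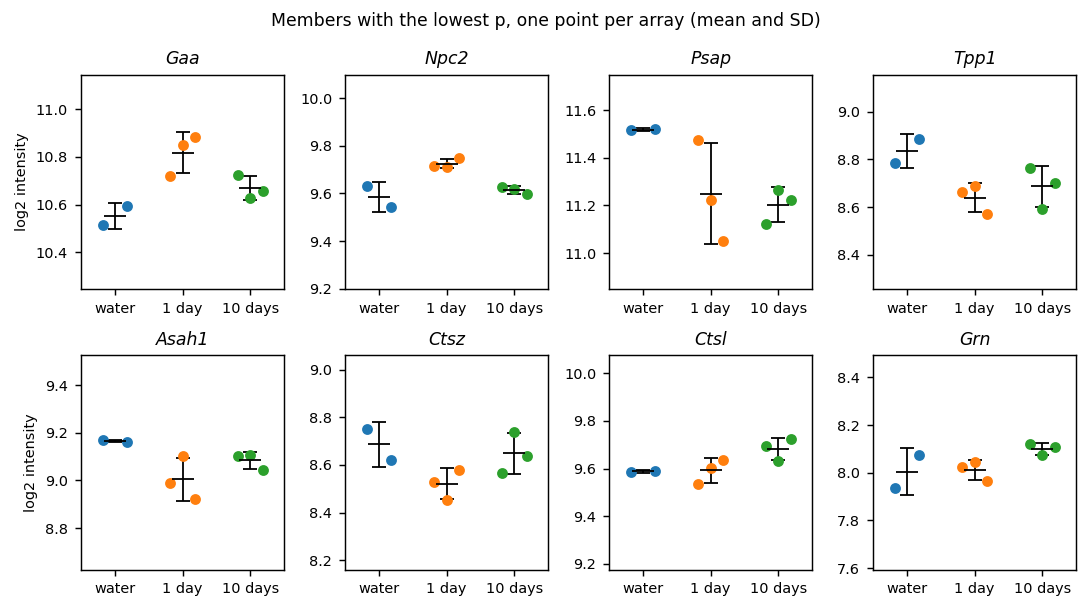
Log2 intensity (vertical axis) of 8 members with low p, in water mice (2 arrays, blue), after 1 day (3 arrays, orange) and after 10 days of trehalose (3 arrays, green). Points are arrays, the long bar is the mean and the whiskers are 1 SD. All 6 trehalose points of Gaa lie above the water points, and those of Psap, Tpp1 and Asah1 lie below them.

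Activator proteins lift lipids out of membranes for the hydrolases, and Npc2 carries cholesterol. Psap, the precursor of the saposins, read 11.51 and 11.52 in water mice, 11.48, 11.22 and 11.05 after 1 day and 11.12, 11.26 and 11.22 after 10 days. The water arrays were nearly equal and every trehalose array was lower, 1 of the 1-day arrays only slightly. The change was -0.31 at 10 days (SE 0.109, 95% interval -0.57 to -0.06), and -0.32 without array 2 of the 1-day group. At 1 day it was -0.27 (SE 0.109), -0.26 without that array, -0.17 without array 3 of the group and -0.38 without array 1. With the local background column it was -1.0 at 1 day and 0.09 at 10 days, the second with the other sign.

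Npc2 read 9.63 and 9.54 in water mice, 9.72, 9.71 and 9.75 after 1 day and 9.63, 9.62 and 9.60 after 10 days. The 1-day arrays were above all others, and the 10-day arrays lay within the range of the water mice. The change was 0.14 at 1 day (SE 0.039, 95% interval 0.05 to 0.23), or 0.15 without array 2 of that group, and -0.11 from 1 to 10 days (SE 0.035), or -0.12 without it. With the local background column the 1-day change was 0.86. Grn, the progranulin precursor that is cut into granulins in lysosomes, read 7.94 and 8.07 in water mice, 8.02, 8.04 and 7.96 after 1 day and 8.12, 8.07 and 8.11 after 10 days. Its 10-day arrays were above the 1-day arrays, with a change of 0.09 (SE 0.045), and overlapped water, with a change of 0.10 (SE 0.050). That change was 0.03 without the first water control. The 2 probes of Gm2a, the activator of ganglioside breakdown, differed from water by -0.03 to 0.00.

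The lipid hydrolases were the acid ceramidase Asah1, the acid sphingomyelinase Smpd1, the cholesterol ester hydrolase Lipa and the thioesterase Ppt1, which removes palmitate from proteins. Asah1 read 9.17 and 9.16 in water mice, 8.99, 9.10 and 8.92 after 1 day and 9.10, 9.11 and 9.04 after 10 days. All trehalose arrays were below water. The change was -0.16 at 1 day (SE 0.055, 95% interval -0.29 to -0.03), -0.21 without array 2 of that group, and -0.08 at 10 days (SE 0.055). Local background subtraction gave -0.78 and -0.93. Smpd1, Lipa and Ppt1 differed from water by -0.05 to 0.04, and only Smpd1 at 1 day separated from the water arrays, by lower values.

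The sulfatases Arsa, Arsb, Ids and Sgsh remove sulfate from sulfatide and glycosaminoglycans. Their 6 probes differed from water by -0.11 to 0.11, 3 higher and 3 lower at 1 day and 4 higher and 2 lower at 10 days. The brighter Arsb probe read 8.72 and 8.84 in water mice, 8.71, 8.60 and 8.70 after 1 day and 8.73, 8.85 and 8.59 after 10 days, so the 1-day arrays lay under both water arrays. Its change at 1 day was -0.11 (SE 0.079), from -0.17 without the first water control to -0.05 without the second, and -0.07 without array 2 of the 1-day group. The dimmer Arsb probe had 0.03. Over the 5 genes with 2 probes, the probes had the same sign in 11 of 15 gene comparisons and opposite signs in 4.

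The membrane proteins overlapped between water and both trehalose groups for all 7 probes. Lamp1, the main glycoprotein of the lysosomal lining, read 11.96 and 11.75 in water mice, 11.91, 11.97 and 11.84 after 1 day and 11.75, 11.84 and 12.03 after 10 days. Lamp2, needed for chaperone-mediated autophagy, read 8.11 and 8.15 in water mice, 8.14, 8.08 and 7.98 after 1 day and 8.26, 8.05 and 8.35 after 10 days. Its change from 1 to 10 days, 0.15 (SE 0.078), had the lowest p of the membrane group, and was 0.16 without array 2 of the 1-day group, 0.09 without array 3 of the 10-day group and 0.24 without array 2 of the 10-day group. Mcoln1, the calcium channel, read 8.67 and 8.72 in water mice, 8.68, 8.83 and 8.93 after 1 day and 8.29, 8.85 and 8.76 after 10 days. One 10-day array stood low and gave Mcoln1 the widest range of all members, 0.64, with changes of 0.12 at 1 day and -0.06 at 10 days (SE 0.155 each). Without that low array the 10-day change was 0.11. Scarb2, which carries glucocerebrosidase to the lysosome, read 8.74 and 8.58 in water mice, 8.77, 8.71 and 8.25 after 1 day and 8.65, 8.50 and 8.86 after 10 days, also with 1 low array. The cholesterol exporter Npc1, the tetraspanin Cd63 and Cln3 differed from water by 0.00 to 0.06.

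Of the 3 transcription factors, Tfeb read 6.39 and 6.25 in water mice, 6.30, 6.32 and 6.28 after 1 day and 6.35, 6.27 and 6.22 after 10 days. Tfe3 read 6.85 and 6.72 in water mice, 6.82, 6.72 and 6.74 after 1 day and 6.82, 6.66 and 6.76 after 10 days. The water mice of both genes differed from each other by more than the group means did. The Tfe3 changes were -0.03 at 1 day (95% interval -0.16 to 0.11) and -0.04 at 10 days (-0.18 to 0.10), and the Tfeb changes were -0.02 and -0.04 (SE 0.056 each). The dimmer Mitf probe read 6.17 and 6.18 in water mice, 6.19, 6.12 and 6.22 after 1 day and 6.29, 6.16 and 6.20 after 10 days. The brighter one read 7.61 and 7.42 in water mice, 7.53, 7.53 and 7.45 after 1 day and 7.62, 7.46 and 7.51 after 10 days. All of these groups overlapped, and the Mitf changes against water lay between -0.01 and 0.04. With the authors' table the dimmer Mitf probe had 0.17 at 10 days and Tfeb -0.10 at 1 day, and with the blank mean subtracted Tfeb had -0.12 at 10 days. The signs of Tfeb, Tfe3 and the brighter Mitf probe followed which water control was kept, with Tfeb at 0.05 at 1 day without the first and -0.09 without the second. These factors act largely by moving into the nucleus, which RNA levels do not report. Tfeb read at most 1.97 times the blank limit, so its changes are compressed by the offset.

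**Figure D5:**
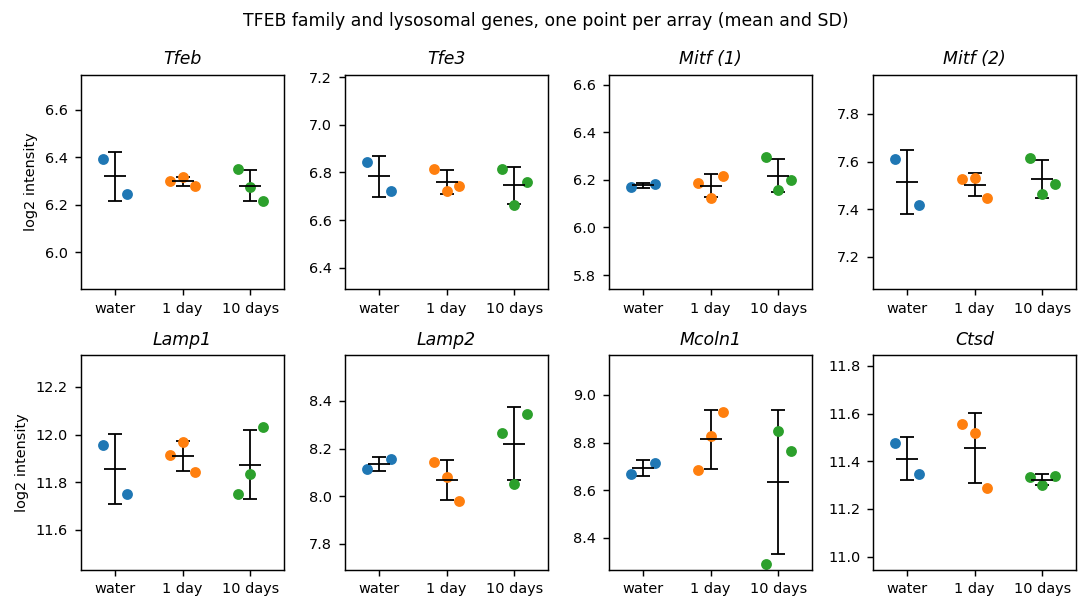
Log2 intensity (vertical axis) of Tfeb, Tfe3, the 2 Mitf probes, Lamp1, Lamp2, Mcoln1 and Ctsd, in water mice (2 arrays, blue), after 1 day (3 arrays, orange) and after 10 days of trehalose (3 arrays, green). Points are arrays, the long bar is the mean and the whiskers are 1 SD. The groups overlap except for Ctsd, whose 10-day arrays lie just under the water arrays, and 1 low Mcoln1 array at 8.29 is visible at 10 days.

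Across both times, 5 member probes lay outside the water range on the same side on all 6 trehalose arrays (10.6%), against 4.73% of all probes. Gaa was higher, against 2.75% of all probes, and Tpp1, Idua, Asah1 and Psap were lower, against 1.98%. Both comparisons use the same 2 water mice, so the 2 times are not independent here. No member probe was above both water arrays at one time and below both at the other. The microglial markers, from cells rich in lysosomes, had a lower mean than water in 8 of 12 probes at 1 day (median change -0.04). At 10 days it was 10 of 12 (median -0.05), and 50.3% and 51.4% of all probes were lower at these times. All 3 trehalose arrays lay under both water arrays for 1 of the 12 at 1 day (8.33%), against 9.19% of all probes. At 10 days it was 2 of the 12 (16.7%), against 6.97%. C1qc, a complement subunit, had the lowest p of this list at 1 day, with a change of -0.22 (SE 0.063). The mean of C1qa was also lower after 1 day, 9.39 against 9.50 in water mice. That of C1qb was higher, 9.55 against 9.49, and 4 of the 12 probes were higher at 1 day. The median deviation of the microglial list by array was 0.04 and 0.04 in water mice, 0.05, -0.11 and 0.00 after 1 day and -0.02, 0.03 and -0.03 after 10 days. By this median the 10-day arrays lay below water and the 1-day arrays on both sides of it. Neuron markers were lower in 8 of 10 probes at 1 day (median -0.12) and in 8 of 10 at 10 days (median -0.10). Their median deviation by array was 0.15 and 0.01 in water mice, 0.04, -0.03 and -0.04 after 1 day and 0.04, -0.03 and -0.04 after 10 days. The first water control alone stood above the trehalose arrays, and the second lay within their range. Other marker lists moved too. At 1 day 6 of 6 striatal, 4 of 5 endothelial, 5 of 7 oligodendrocyte and 5 of 9 astrocyte probes were lower. At 10 days these were 5 of 6, 2 of 5, 3 of 7 and 4 of 9. Thalamic probes were higher in 4 of 6 and 6 of 6, and choroid plexus and ependyma probes in 5 of 6 and 6 of 6. All trehalose arrays lay above both water arrays for 2 thalamic probes at 1 day and 3 at 10 days. The shares of all probes were 8.97% and 6.46%. At each time 2 of the 6 (33.3%) had an unadjusted limma p under 0.05, against 3.65% and 2%. Slc17a6 of this list read 8.91 and 9.02 in water mice. Its trehalose arrays read 9.33, 9.74 and 9.38 after 1 day and 9.37, 9.23 and 9.34 after 10 days. The part of these markers in the lower Tpp1, Asah1 and Psap values was not tested. In tissue RNA, fewer cells of a type and less RNA per cell cannot be told apart.

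The genes with an E-box core showed more higher values than the other members at 1 day. Of their 14 probes 12 were higher than water, with a median of 0.05, against 9 of 29 probes of members without the core, with a median of -0.02. Over all genes with the core, 48.4% of 1518 probes were higher, and 48.5% of 13478 probes of genes without it. The count rested on the second water control, since without it 6 of the 14 were higher, with a median of -0.01. In that fit 9 of the 29 probes without the core were higher, with a median of -0.05. Without array 2 of the 1-day group the counts were 10 of 14 and 9 of 29. At 10 days 10 of the 14 were higher, against 12 of the 29 without the core and 49.5% of the probes of all genes with it. From 1 to 10 days it was 4 of the 14, against 18 of the 29 and 50.7%. Without array 2 of the 1-day group this count was 8 of the 14, against 20 of the 29. With the authors' table it was 9 of the 14, with a median of 0.05, against 27 of the 29, with a median of 0.11. The median of all probes was 0.08 in that table. With the local background column the counts were 9 of the 14 and 16 of the 29. The difference between the member sets was not tested, and Gaa alone of the 14 had an unadjusted p under 0.05 at 1 day.

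Lysosomal genes beside the members were measured through 4 further lists. Of 20 other hydrolases 16 genes had 18 probes, of 20 other membrane proteins 19 had 19 probes, 14 sorting genes had 14 probes and of 8 further transcription regulators 7 probes were tested. In each list 0 probes passed in any comparison. Without adjustment, 0 of the 18 other hydrolase probes, 2 of the 19 membrane probes, 0 of the 14 sorting probes and 0 of the 7 regulator probes had a limma p under 0.05 at 1 day, against 3.65% of all probes. The 2 membrane probes are 10.5% of their list. At 10 days 1 membrane probe (5.26%) had such a p, against 2% of all probes, and 1 did between the times, against 3.5%. Laptm4a, a small lysosomal membrane protein, read 11.14 and 11.27 in water mice, 11.45, 11.43 and 11.44 after 1 day and 11.32, 11.32 and 11.22 after 10 days. The 1-day arrays were above all others, as for Npc2, with a change of 0.23 at 1 day (SE 0.053, 95% interval 0.11 to 0.36) and -0.15 from 1 to 10 days (SE 0.047), or 0.24 and -0.16 without array 2 of the 1-day group. Ostm1, a partner of the chloride transporter Clcn7, had 0.13 at 1 day (SE 0.041), or 0.11 without that array, and the sialic acid exporter Slc17a5 had -0.17 at 10 days (SE 0.065). The mannose 6-phosphate receptor M6pr had 0.19 at 10 days (SE 0.109), with overlapping groups. Among the other hydrolases Dnase2a, an acid nuclease, had 0.09 at 1 day (SE 0.052), or 0.04 without array 2 of the 1-day group, and Aga, which cuts asparagine-linked sugars, 0.12 at 10 days (SE 0.066). Zkscan3, a repressor of autophagy and lysosomal genes, had 0.14 from 1 to 10 days (SE 0.064).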

How the data were processed

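Total RNA was extracted, amplified, coupled to Cy5 and hybridised, per the labels' protocols. The deposited scanner files give, per the file headers, a median pixel intensity for each spot, read at 635 nm and combined from 3 scanner gains. The authors' own processed intensity table, also deposited, has a median of 25 on each array and served as an alternative. No scan date or slide is given in the sources used here.

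Log2 intensities were computed with limma 3.58.1 in R 4.3.3. Background was corrected by normexp (offset 50, fitted on all spots), arrays were quantile normalized, and spots of a probe were averaged. Probes above the blank mean plus 2 SD on at least 2 arrays entered 1 fit of the 3 groups, with 5 residual degrees of freedom and Benjamini-Hochberg adjustment over 21583 probes. No set test was run. The fit was tested on simulated data. Replicates are separate mice per the labels. Precision is limited by the small number of arrays.

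The members and lists were chosen with earlier results of these data known. Values by array are given for the 6 lowest p in each comparison, the lowest p of each role, and Tfeb, Tfe3, Mitf, Lamp1, Lamp2, Ctsd, Ctsb, Gaa, Psap and Mcoln1. Idua, Ctsh and Scarb2 were added after their values were seen. From the other lysosomal lists, probes with low p are named. The marker lists are given by counts and medians, with single probes named for microglia and thalamus only. Promoter windows are from RefSeq, GRCm38.p6.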

Additional observations from a re-analysis of the deposited data

How the results depend on the processing

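Under every other setting run, 0 member probes passed limma's adjusted threshold in any comparison. Counts of all probes were 1 in place of 0 at 10 days against water and at 10 days against 1 day, when the blank mean was subtracted or trend and robust variances were used. Over the fits that left out single arrays they ranged from 0 to 2 at 1 day and from 0 to 2 at 10 days against water, with the 2 calls without water control replicate 1. The median of the members moved with the whole table when the authors' table was used, to -0.0523 at 1 day (all probes -0.0548) and 0.0885 from 1 to 10 days (all probes 0.0796). Among members with an unadjusted p under 0.05, signs turned for Ctsz at 1 day, to 0.0196, and for Psap at 10 days, to 0.0906, both with the local background column. That column also changed the sign of 17, 14 and 19 of the 47 probes in the 3 comparisons, and the cause was not tested. The unadjusted count of 6 members at 1 day was 1 with the blank mean subtracted and 0 with the authors' table. The 12 genes with the E-box core stood in place of 5 with the longer form. With the replicate block, 0 members passed and the medians were 0.00628, 0.00637 and 0.00269. In deviations from the group means, 6 of the 7 pairs of arrays with the same replicate number correlated by 0.119 to 0.263 and the other by -0.0257. Of the 14 pairs with different numbers 10 were negative, over a range of -0.314 to 0.214. The deviations of the 2 water arrays mirror each other, so each correlation with one repeats that with the other in the opposite sign. Deviations also cancel out within each group of 3 arrays, so positive pairs of the same number push the other pairs down. These counts are therefore not independent. Of the 8 arrays 7 correlated best with one of their own number, which is a hint from the data. The numbers that open the sample descriptions also run by replicate. They are 1 to 3 for replicate 1, 4 to 6 for replicate 2, and 7 and 8 for replicate 3. With this number as covariate the medians of the members were 0.00506, 0.00778 and 0.0122. The main fit did not pair the mice, and 1 low pair cannot settle whether arrays of the same replicate number share a block.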
